A study of Mus musculus with 3 samples.

Results

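The control region is the main non-coding stretch of the mitochondrial chromosome, chrM:15423-16299 in build mm9, and its occupancy was described base by base in liver from male C57Bl/6 mice, 2 to 3 months old. It holds 877 bases, and the 68 bases chrM:1-68 were joined to it across the end of the linear sequence, since the molecule is a circle. That made 945 of the 16299 bases of the chromosome, of which 943 had a value in all 3 tracks. Base 1 had no value in any track and base 16299 none in the mTOR track, so the joined region was otherwise complete. Its limits follow the chromosome map, but the region was chosen from earlier results on these libraries in which mTOR coverage was high there. The height of mTOR over IgG is therefore given as a description, with no test.

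In each mitochondrial DNA molecule the control region carries the promoters of both strands and the origin of heavy-strand replication. A short newly made strand often stays paired there and displaces the other strand, which gives the D-loop its name. Transcription and replication factors such as TFAM and the mitochondrial RNA polymerase POLRMT are known to act on it. In the order of the RefSeq gene table for GRCm38.p6, which was used for names only, the proline and threonine transfer RNA genes TrnP and TrnT lie just before the region. The phenylalanine transfer RNA gene TrnF and the small ribosomal RNA gene mt-Rnr1 come first after the sequence end. No sequence is printed, because no mm9 sequence was used here.

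Chromatin immunoprecipitation and sequencing (ChIP-seq) gave 3 groups of 1 library each. They were a ChIP for mTOR, the kinase that rapamycin inhibits; a ChIP for ERRα, a nuclear receptor known for its control of nuclear genes of mitochondrial energy metabolism; and a control with rabbit immunoglobulin G (IgG). None of the 3 libraries is labelled as coming from treated animals. For each ChIP, 8 immunoprecipitations of a chromatin pool from 26 livers were combined, so there is no replicate check and every comparison below is one of single libraries. Values are tag coverage scaled by the authors to 10000000 tags, from 62500000 tags for mTOR, 74200000 for ERRα and 68800000 for IgG, so that 1 tag was worth 0.16, 0.135 and 0.145 units in the mTOR, ERRα and IgG tracks. The mitochondrial chromosome held 0.293% of all mTOR coverage, 0.0974% of all ERRα coverage and 0.0981% of all IgG coverage. Intervals are exact (Clopper-Pearson) 95% intervals on approximate numbers of tags, and they cover counting error only.

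The mTOR ChIP was raised in the control region far beyond its level on the rest of the mitochondrial chromosome, and the ERRα ChIP was not. Mean coverage of the joined region was 945.6 for mTOR, 102.6 for ERRα and 117.9 for IgG. Single bases ran from 109.4 to 2917.3 for mTOR with a median of 536.9, from 19.9 to 218.3 for ERRα with a median of 88.5, and from 24.3 to 253.2 for IgG with a median of 100.1. At each of the 943 bases mTOR coverage exceeded IgG, by 2.07 times at the least. It also did so at all 11274 bases of the rest of the chromosome, where the lowest ratio was 1.025.

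By summed coverage, mTOR stood at 8.02 times IgG (7.79 to 8.26) and ERRα at 0.870 times IgG (0.836 to 0.905). Against the ERRα ChIP mTOR stood at 9.22 times (8.94 to 9.50). On the rest of the chromosome, over 11274 bases, mTOR was 2.56 times IgG (2.54 to 2.59) and ERRα 0.999 times (0.988 to 1.01). The joined region thus stood at 3.13 times the rest in mTOR over IgG, and at 0.871 times the rest in ERRα over IgG. Without the joined bases, the control region alone was at 7.57 times IgG for mTOR, or 2.95 times the rest. The joined bases alone were at 15.6 times IgG. The rest included windows where ERRα reached up to 3.26 times IgG. By medians of per-base ratios, ERRα over IgG in the region was 0.959 times the rest. Of the 20 windows of 50 bp in the region, 17 lay between the 5th and 95th percentile of the rest for ERRα over IgG. The contrast between region and rest can also be read without any scaling between libraries. The joined region made up 7.72% of the bases with values, and held 20.4% of the mitochondrial coverage of mTOR, 6.66% of that of ERRα and 7.57% of that of IgG.

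The raw tracks had one outline in the ERRα and IgG libraries and another in the mTOR library. All 3 began with a broad first hump on the TrnP side, whose top was 548.0 at base 15557 for mTOR, 218.3 at base 15553 for ERRα and 253.2 at base 15552 for IgG. All 3 then fell to a trough, of 109.4 at base 15785 for mTOR, 19.9 at base 15775 for ERRα and 24.3 at base 15776 for IgG. Beyond the trough a second hump rose in every track, with its top at base 16152 for mTOR, 16137 for ERRα and 16138 for IgG. The first hump stood at 5.01 times the trough for mTOR, 10.97 times for ERRα and 10.4 times for IgG. Past the sequence end the joined bases reached 1619.6 at base 50 for mTOR, 93.1 at base 61 for ERRα and 107.8 at base 60 for IgG, above the first hump for mTOR and below it for ERRα and IgG. The humps lay at like places in the 3 libraries, and their relative heights differed between mTOR and the other two.

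The second hump reached 2917.3 for mTOR, 162.8 for ERRα and 176.6 for IgG. Within each library it was 5.32 times as high as the first for mTOR, 0.746 times for ERRα and 0.697 times for IgG. Its width at 50% of its own height was 195 bp for mTOR, 216 bp for ERRα and 206 bp for IgG. The narrow outline of the raw mTOR peak was therefore close to that of the hump which the ERRα and IgG libraries had at the same place.

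**Figure D1:**
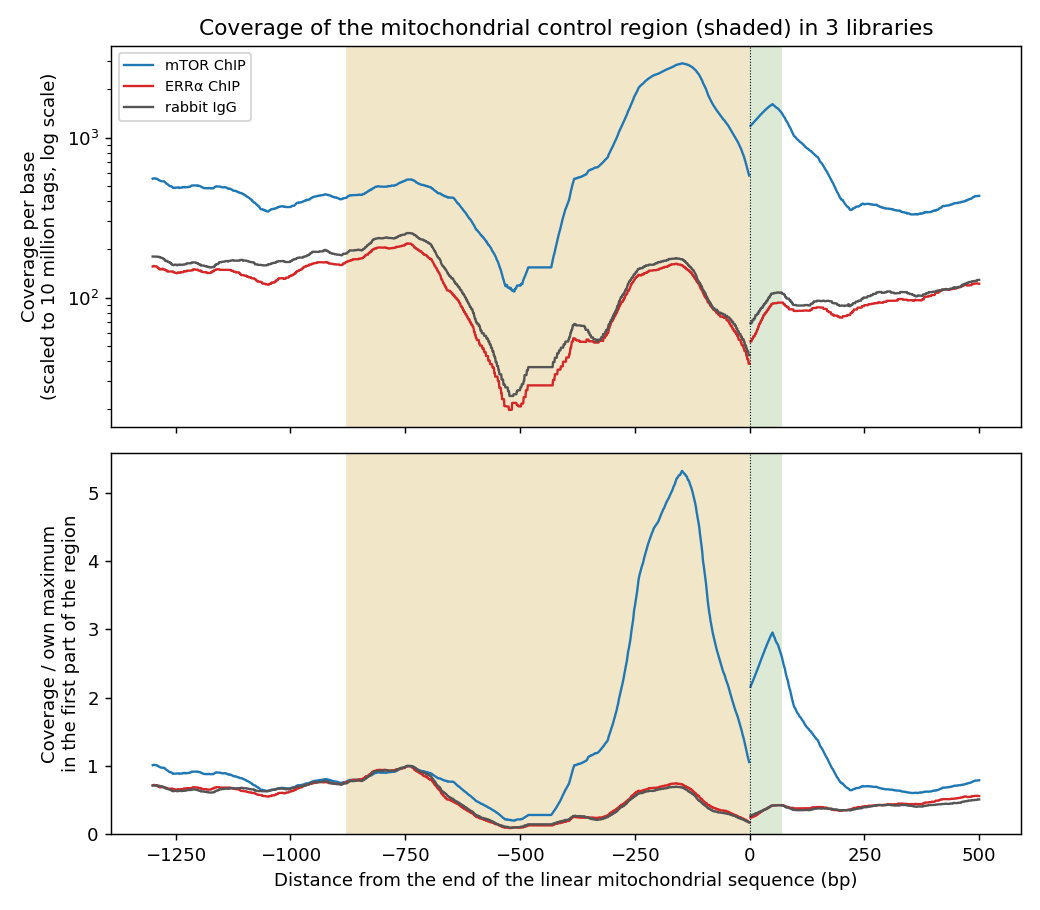
Coverage per base from the mTOR ChIP, the ERRα ChIP and rabbit IgG against distance from the end of the linear mitochondrial sequence in bp; the upper panel gives coverage scaled to 10000000 tags on a log axis, and the lower panel divides each library by its own top in the first hump. Yellow shading is the control region, green shading the joined bases, and the dotted line the sequence end; in the lower panel mTOR reached 5.32 in the second hump, against 0.746 for ERRα and 0.697 for IgG.

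The mTOR excess was not spread evenly: on the TrnP side of the control region mTOR was at its level of the rest of the chromosome, and on the TrnF side it was many times higher. In consecutive 50-bp windows, mTOR over IgG was 2.20 (2.06 to 2.35) at chrM:15423-15472, the first window of the region, where coverage was 442.8 for mTOR, 176.8 for ERRα and 201.03 for IgG. The lowest window was the next, chrM:15473-15522, with 492.5 for mTOR, 203.3 for ERRα and 233.7 for IgG, or 2.11 times IgG (1.98 to 2.24). The first 4 windows, up to base 15622, stayed between 2.11 and 2.27. These values lay below the median of 2.44 over the 224 fully covered windows of the rest of the chromosome, so 200 bases of the control region showed no more mTOR relative to IgG than most mitochondrial DNA elsewhere.

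From chrM:15623-15672, at 3.02 times IgG (2.80 to 3.25), the ratio climbed to 4.40 (3.75 to 5.16) at chrM:15773-15822, the window with the lowest coverage, which held 125.8 for mTOR, 22.9 for ERRα and 28.6 for IgG. It then passed 6.81 at chrM:15873-15922, 10.03 at chrM:15923-15972, 11.8 at chrM:15973-16022 and 13.03 at chrM:16023-16072. The window with the highest mTOR coverage, chrM:16123-16172, held 2834 for mTOR, 156.9 for ERRα and 170.4 for IgG, a ratio of 16.6 (15.7 to 17.7). The ratio itself was highest one window later, at chrM:16173-16222, with 2190 for mTOR, 109.6 for ERRα and 114.8 for IgG, or 19.08 times IgG (17.8 to 20.5). Of the other windows, 1 had an interval that overlapped with this one, the next window chrM:16223-16272, at 16.3 (14.97 to 17.9).

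Split into 4 equal parts, the control region gave mTOR over IgG of 2.22 (2.11 to 2.34) in chrM:15423-15642 and 3.75 (3.42 to 4.12) in chrM:15643-15861. The third part, chrM:15862-16080, was at 11.2 (10.5 to 12.1) and the last, chrM:16081-16299, at 16.6 (15.7 to 17.6). The 4 intervals, which cover counting error only, did not overlap. The parts were chosen after the values were seen, and the intervals count every tag as separate, so nothing further is read from this order. The last part alone held 10.05% of all mitochondrial coverage of mTOR, 1.69% of that of ERRα and 1.80% of that of IgG.

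The excess lay on both sides of the end of the sequence, with a step in every track at the end itself. The last window before the end, chrM:16273-16299, had a ratio of 14.4 (12.9 to 16.05). Past the end, chrM:1-50 was at 16.2 (14.9 to 17.7), with 1408 for mTOR, 72.1 for ERRα and 86.7 for IgG, and chrM:51-68 was at 14.3 (13.3 to 15.4). All tracks dipped at the end itself, to 579.7 at base 16298 for mTOR, and to 38.6 for ERRα and 43.7 for IgG at base 16299. Coverage restarted at base 2 with 1184.3 for mTOR, 53.2 for ERRα and 69.1 for IgG. A read across the end has no place on a linear sequence, and the handling of such reads was not given in the sources used here.

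Base by base, the maximum of mTOR over IgG was 19.9 (18.6 to 21.3) at base 16187, where coverage was 2518.7 for mTOR, 124.2 for ERRα and 126.6 for IgG. It lay 35 bases past the top of raw mTOR coverage. The ratio stayed at or above 50% of this maximum from base 15948 to base 119, over 471 bp, of which 239 bases came before the maximum and 231 after it. At base 15948 coverage was 620.3 for mTOR, 54.7 for ERRα and 60.4 for IgG, and at base 119 it was 889.9 for mTOR, 83.1 for ERRα and 89.3 for IgG. At 75% of the maximum the width was 181 bp, from base 16085 to base 16265, with 102 bases before the maximum and 78 after it; past the sequence end the ratio was above that level again, at 17.4 at base 4. At 25% the width was 614 bp, with 309 bases before the maximum and 304 after it. Division by IgG gave a rise wider than the raw peak of 195 bp that ran past the joined bases; it was nearly symmetric at 50% and 25% of the maximum and less so at 75%.

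The width depends on how IgG is taken into account. With IgG subtracted instead, at 2.42 times its coverage (the median ratio more than 300 bp from the joined region), the excess peaked at base 16152 with 2496 units and its width at 50% was 191 bp. The subtraction weights bases by their coverage, which had the second hump in every library, while the ratio does not. With the ERRα ChIP as denominator the width was 462 bp, from base 15948 to base 110, but the maximum moved past the sequence end, to 22.7 (20.5 to 25.1) at base 4. There coverage was 1205.6 for mTOR, 53.2 for ERRα and 69.1 for IgG. Of the 462 bp, 355 bases came before that maximum and 106 after it, so the near symmetry was seen only with IgG as denominator. The exact place of the maximum is accordingly not fixed by these libraries. Both denominators gave a left edge at base 15948, but at 50% of different maxima and with the same mTOR track.

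**Figure D2:**
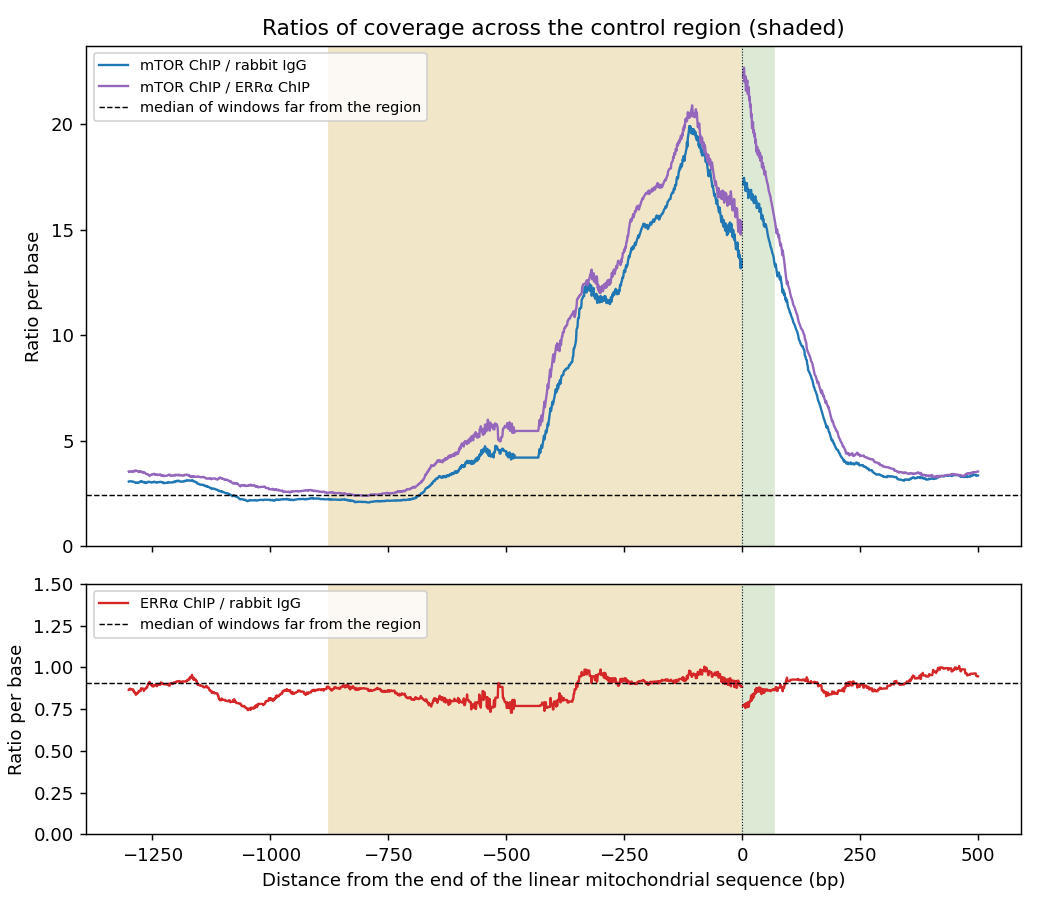
Ratio of coverage per base against distance from the end of the linear mitochondrial sequence in bp, with mTOR over IgG and mTOR over ERRα in the upper panel and ERRα over IgG in the lower panel; shading is as in the plot of coverage, and dashed lines are the medians of windows more than 300 bp from the joined region. mTOR over IgG lay near its dashed line at the start of the region, reached 19.9 and came down again past the sequence end, while ERRα over IgG stayed between 0.729 and 1.00 in the shaded bases.

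The rise continued as a shoulder past the joined bases, and did not extend out of the region on the TrnP side. The first window past them, chrM:69-118, was at 11.7 times IgG (10.8 to 12.7), with 1115 for mTOR, 85.6 for ERRα and 94.9 for IgG. The ratio was 8.20 (7.56 to 8.93) at chrM:119-168, 5.02 (4.61 to 5.49) at chrM:169-218 and 3.86 (3.54 to 4.21) at chrM:219-268, and from chrM:269-318 on it stayed at 3.20 to 3.40 for the 4 windows up to base 468. On the other side, the last window before the region, chrM:15373-15422, was at 2.25 (2.10 to 2.40), with 425.5 for mTOR, 163.2 for ERRα and 189.3 for IgG. The limit of the region on the TrnP side thus lay in a level stretch, and the end of the joined bases lay in the descent. Above 4.43, the highest window more than 300 bp away, the ratio ran without a break from base 15872 to base 205, or 633 bp. That level is a mean over a window, and single bases more than 300 bp away reached up to 6.0 times IgG.

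Of the 20 windows of the joined region, 16 had mTOR at 3 times IgG or more, against 18.4% of all 244 windows of the chromosome. Among the 224 windows of the rest 29 reached that ratio, 6 of them within 300 bp of the joined region. The 20 windows had a median of 8.42 and the rest a median of 2.44 (5th to 95th percentile 1.97 to 3.43). Since the region was chosen for its mTOR level, nothing is read from these counts. Tags are about 150 bp long, so neighbouring windows share tags and are not independent.

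The 5 highest windows of the rest were first the 3 windows chrM:69-218 named above, and then chrM:4819-4868 at 4.43 (4.03 to 4.88) and chrM:4769-4818 at 4.40 (4.05 to 4.79). At chrM:4819-4868 coverage was 349.3 for mTOR, 67.3 for ERRα and 78.8 for IgG. More than 300 bp from the joined region, 4.43 was thus the highest ratio of a covered window, against 19.08 in the region. The 10 windows of the region at 10 times IgG or more had IgG of 53.5 to 170.4. The 195 windows of the rest within that IgG range had ratios of 1.89 to 11.7 with a median of 2.45, the highest being the shoulder window chrM:69-118. The 10 windows of the rest with still lower IgG had ratios of 1.64 to 2.81. Whether the IgG level bears on the ratio was not tested.

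**Figure D3:**
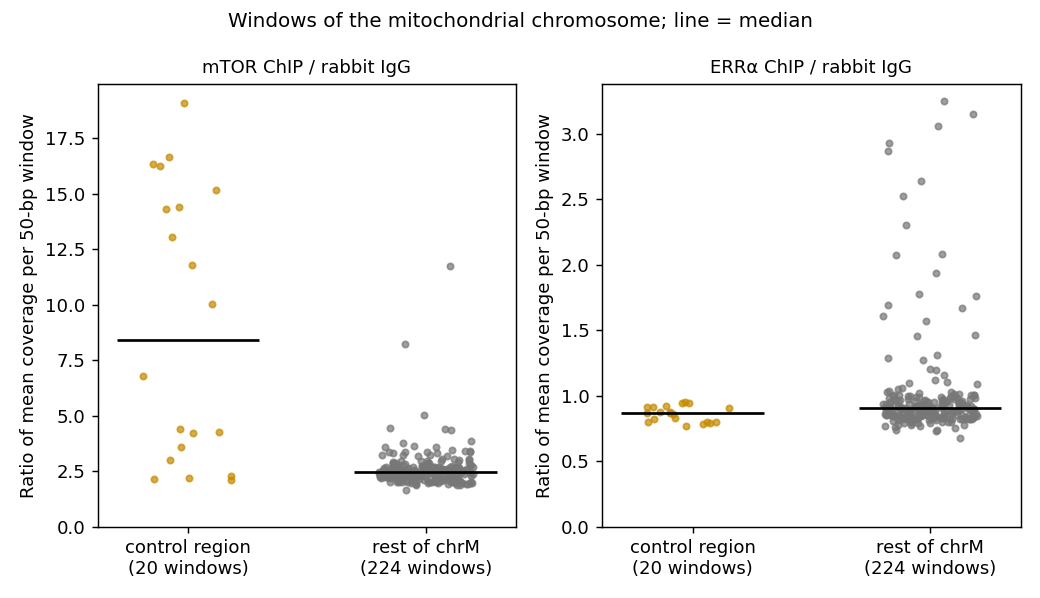
Ratio of mean coverage per 50-bp window, mTOR over IgG on the left and ERRα over IgG on the right, for the 20 windows of the joined control region and the 224 fully covered windows of the rest of the mitochondrial chromosome; each point is a window, its sideways position within a group has no meaning, and the line is the median. The joined control region spans 2.11 to 19.08 for mTOR and 0.769 to 0.954 for ERRα.

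ERRα showed no excess in the control region. Its ratio to IgG was highest, at 0.954 (0.864 to 1.05), in chrM:16173-16222, the window that was also highest for mTOR. It was lowest, at 0.769 (0.639 to 0.928), in chrM:15823-15872, where coverage was 156.1 for mTOR, 28.4 for ERRα and 36.9 for IgG. None of the 20 windows reached 3 times IgG, against 1.23% of all 244 windows, and 13 of the 20 lay below the median of 0.906 over the rest. The interval of the lowest window lay below 1 and that of the highest included 1. In the window with the tops of the second hump of ERRα and IgG, chrM:16123-16172, the ratio was 0.921 (0.848 to 0.999). In the one before it, chrM:16073-16122, it was 0.911 (0.838 to 0.990). Both intervals ended just below 1, and neighbouring windows share tags and are not independent. Both ratios were slightly above the median of 0.906 over the rest, so this level below IgG was not particular to these windows.

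Within the region ERRα over IgG was 0.853 (0.802 to 0.906) in the first of the 4 equal parts and 0.796 (0.705 to 0.899) in the second. It was 0.892 (0.807 to 0.984) in the third and 0.929 (0.857 to 1.01) in the last. Each of these intervals overlapped with every other, so they do not separate the parts. At single bases the ratio reached at most 1.00, at base 16219, with 86.4 for ERRα and 86.0 for IgG, where mTOR coverage was 1611.8. The places where ERRα did exceed IgG lay elsewhere: the 5 highest windows of the rest made up chrM:2619-2868, at 2.87 to 3.26 times IgG. The highest of them, chrM:2669-2718, held 257.7 for mTOR, 337.3 for ERRα and 103.6 for IgG.

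mTOR over ERRα, which shares the mTOR library with mTOR over IgG, was lowest at chrM:15473-15522, at 2.42 (2.28 to 2.58), and highest at chrM:16173-16222, at 19.99 (18.6 to 21.5), the same 2 windows as with IgG. At least 3 times ERRα was reached in 16 of the 20 windows, against 29.1% of the 244. The mTOR excess was as large with the ERRα library in the place of IgG.

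The mTOR rise was built from tags at many start positions. Between the lowest base of IgG and the maximum of mTOR coverage, 283 of 376 bases rose over the base before, and the 72 largest rises made up 50% of the summed rise. The largest single rise was 40.6 units, or about 254 tags, at base 16047, equal to 1.39% of the maximum. At that base ERRα coverage rose by 3.0 units and IgG coverage by 2.7 units. The largest fall, of 46.8 units at base 16197, was 1.60% of the maximum. Leading rises were matched 150 bases later, at the length of a tag: of the 5 largest rises, 4 had one of the 5 largest falls at exactly that distance, as at bases 16056 and 16206, where mTOR rose by 32.7 units and fell by 38.4 units. A step is the net of tags that begin and tags that end at a base, so a pile can be partly hidden by tags ending there. Net of such ends, no position gave over 1.60% of the peak.

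In all 3 libraries more than 1 tag per start and strand must have been counted. At 1 tag of 150 bp for each start and strand, coverage could not pass 48.0 units in the mTOR track, 40.4 in the ERRα track and 43.6 in the IgG track. The maximum of the region stood at 60.8 times that limit for mTOR, about 18233 tags over 1 base, at 5.40 times for ERRα and at 5.81 times for IgG. The limit was passed at 943 of 943 bases for mTOR, 771 of 944 for ERRα and 808 of 944 for IgG. Passing it was not particular to the region. On the rest of the chromosome median coverage was 295.35 for mTOR, 114.9 for ERRα and 123.2 for IgG, also above these limits. Tags from separate mitochondrial genomes and copies of the same fragment cannot be told apart in these tracks. The part of copied fragments in the mTOR excess was not tested.

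**Figure D4:**
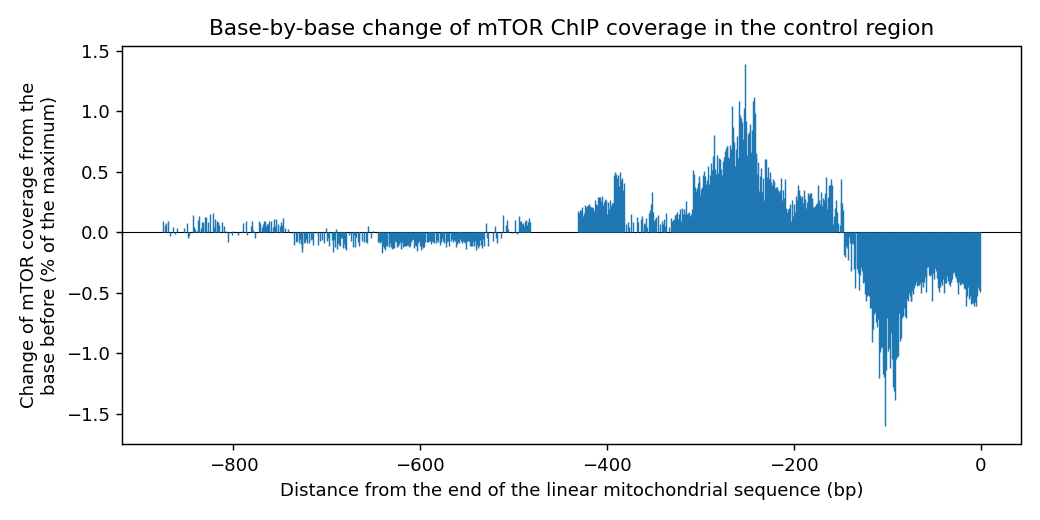
Change of mTOR ChIP coverage from each base to the next, as a percentage of the maximum of 2917.3 units, against distance from the end of the linear mitochondrial sequence in bp across the control region. Rises crowd before the maximum and falls after it, none above 1.39% upward or 1.60% downward, and a blank stretch of 51 bases has no step.

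That blank stretch was shared by the libraries. From base 15817 to 15867 the mTOR track held a single value of 154.6, while ERRα held 28.3 from base 15816 to 15870 and IgG held 36.8 from base 15817 to 15870. Each base of the joined region lies in an interval that holds 1 value. Over all its bases with a value, this stretch included, the median length of that interval was 1 for mTOR, 4 for ERRα and 4 for IgG. No tag began or ended in the blank stretch in any library as far as the tracks show. It was 51, 55 and 54 bases long for mTOR, ERRα and IgG, close to the read length of 50 bp. The ratio of mTOR to IgG across it, 4.20, is thus 1 measurement and not 51.

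Taking out the 150 bases on each side of the largest step, which removes the top of the second hump, left mTOR over IgG at 4.16 for the joined region and at 1.62 times the rest of the chromosome, and the highest remaining base at 15.3 times IgG. These values pool bases at different levels, since the first 4 windows of the region, which were not taken out, lay at 2.11 to 2.27.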

How the data were processed

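Coverage signal along the genome was deposited for 1 mTOR ChIP, 1 ERRα ChIP and 1 IgG library, scaled by the authors to 10000000 tags, per the file headers. Build mm9 and the tools BWA 0.5.9 and MACS 1.4.1 are named in the submitters' processing notes, without roles; the labels' protocols give single reads of 50 bp. Whether and how tags were extended or duplicates removed was not given in the sources used here. Summed coverage equalled 149.4, 149.3 and 149.9 bp per tag for mTOR, ERRα and IgG.

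Intervals were read as 0-based half-open and written per base. Ratios used bases with values in all tracks and IgG of at least 1 unit; 50-bp windows of the rest had to be fully covered. Tag numbers for intervals were summed coverage divided by units per tag and by 150 bp for parts of the chromosome, and mean coverage divided by units per tag for windows and single bases. The number of immunoprecipitations behind the IgG library was not given in the sources used here. Stretches chrM:6542-9683 and chrM:9961-10893 had no IgG coverage and were left out. With 1 library per group there was no test. The region, the lists and the rules for windows and steps were chosen with earlier results of these data known. The named windows are the highest, lowest, edge and top ones of each ratio, the 5 highest of the rest, and the 5 largest steps each way; the 4 equal parts, the humps and the blank stretch were added after the values were seen. The measurement of ratio and width was tested on simulated data with a planted peak. Python 3.11.15, NumPy 2.4.6, pandas 2.3.3, SciPy 1.17.1 and Matplotlib 3.10.9 were used. Mitochondrial sequence was not used here.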

Additional observations from a re-analysis of the deposited data

How the results depend on the processing

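Of 50 recomputed values, 27 stayed within the counting interval (or at the same width) and 23 moved. The 27 include the setting with no minimum IgG level, which gave the main values again and so checks nothing. None of the ratios crossed 1, and widths had no direction to change. The values below are mTOR over IgG in the joined region unless named. Medians of per-base ratios gave 6.54, with 8.37 for mTOR over ERRα, 2.69 for mTOR over IgG against the rest of the chromosome and 0.959 for ERRα over IgG against the rest. Without bases near an end or an uncovered stretch the values were 5.93, 6.89 over ERRα, 2.35 against the rest and a maximum of 16.6; no width was taken, since the top is removed. Without bases near the largest step they were 4.16, 4.90 over ERRα, 1.62 against the rest and a maximum of 15.3. Without the joined bases they were 7.57, 8.68 over ERRα, 2.95 against the rest and a width of 351 bp. With ERRα in place of IgG the maximum was 22.7, the width 462 bp and the value against the rest 3.59. Windows of 50 bp gave a width of 495 bp, and sliding windows of 200 bp a width of 528 bp and a maximum of 17.2. Subtraction in place of division, added after seeing the data, gave 191 bp; leaving out 300 bp beside the region, also added, moved neither value against the rest beyond its interval. Causes of these shifts were not tested, beyond the bases each setting removes. The interval of the maximum in 50-bp windows overlapped with that of the next window, so depth does not separate these 2. No paired analysis was possible because each group holds 1 library.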
